A study of Mus musculus with 4 samples.

Results

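The genes of transforming growth factor β (TGF-β) ligands, receptors and SMAD proteins were examined in neutrophils isolated from the mouse heart after ischemia and reperfusion. The 10 genes *Tgfb1*, *Tgfb2*, *Tgfb3*, *Tgfbi*, *Tgfbr1*, *Tgfbr2*, *Smad2*, *Smad3*, *Smad7* and *Skil* were selected by name from the 25655 genes of the RNA-Seq files, and all 10 were found. TGF-β ligands are secreted in a latent form, bound to a propeptide, and are released by integrins, thrombospondin and proteases. The active ligand joins the type II receptor TGFBR2 to the type I receptor TGFBR1, which phosphorylates SMAD2 and SMAD3, and these enter the nucleus with SMAD4. In the injured heart the pathway is known for driving the differentiation of fibroblasts into myofibroblasts and the deposition of matrix, and leukocytes are among the cells that express its ligands.

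RNA-Seq was performed on 4 libraries, with 1 library for each combination of genotype and subset. Male WT and *Cd300a-/-* mice on the C57BL/6 background underwent occlusion of a coronary artery and reperfusion (MI/R), and on day 3 CD45.2+CD11b+Ly6G+ cells were sorted from the hearts into SiglecF hi and SiglecF lo neutrophils, which the labels call SiglecF+ and SiglecF-. The deletion of *Cd300a*, which encodes an inhibitory receptor of myeloid cells, is in every cell of these mice and not in neutrophils alone. Cells of 8 hearts were pooled for each library, so the variation between mice could not be measured and no P value between conditions is given. Counts assigned to genes summed to 19278243 in SiglecF hi cells of WT mice, 17632989 in SiglecF hi cells of *Cd300a-/-* mice, 9631901 in SiglecF lo cells of WT mice and 10988619 in SiglecF lo cells of *Cd300a-/-* mice. Levels are given as TPM, a measure of transcript abundance corrected for gene length and depth. A difference is the log2((TPM + 1) ratio) of a pair of libraries, so that changes of low genes are understated. The 95% intervals were computed from the counts and hold counting error only, as PCR copies of a molecule were not marked and the mice of a pool were not separated. Each count was treated as independent. Sequencing was in paired ends, and the intervals are too narrow if both reads of a pair were counted, which is not stated.

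The labels were first checked against the genes that define them. In WT mice *Cd300a* was at 163 TPM in the SiglecF hi and 127 TPM in the SiglecF lo library, against 0.740 TPM (27 counts) and 1.06 TPM (28 counts) in the *Cd300a-/-* libraries. *Siglecf* was at 354 and 405 TPM in the SiglecF hi libraries of WT and *Cd300a-/-* mice and at 11.3 and 15.3 TPM in the SiglecF lo libraries. The sorting markers *Itgam* (CD11b) and *Ptprc* (CD45) were at 337 to 550 TPM and at 608 to 710 TPM in the 4 libraries. *Ly6g*, the gene of the third sorting marker, was at 330 and 889 TPM in the SiglecF lo libraries of WT and *Cd300a-/-* mice, but at 11.1 and 41.9 TPM in their SiglecF hi libraries. The SiglecF hi libraries therefore held little message of a gene whose protein was used to sort them.

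Transcripts of other cell types were present in all 4 libraries and differed between them. The gene said to lead a list had the highest mean TPM of the 4 libraries, not always the highest TPM in each. The 12 macrophage and monocyte markers, which were led by *C1qb*, summed to 7756 TPM in SiglecF hi cells of WT mice, 6923 TPM in SiglecF hi cells of *Cd300a-/-* mice, 3809 TPM in SiglecF lo cells of WT mice and 3512 TPM in SiglecF lo cells of *Cd300a-/-* mice, and 10 of the 12 were higher in the SiglecF hi library of WT mice and 11 in that of *Cd300a-/-* mice, or 7 and 10 relative to the median of all genes. The 9 fibroblast markers, led by *Dcn*, summed to 2131, 1519, 984 and 996 TPM in the same order, and all 9 were higher in the SiglecF hi library of each genotype, or 9 in WT and 4 in *Cd300a-/-* mice relative to the median. The 8 endothelial markers, led by *Pecam1*, summed to 97.4, 125, 172 and 65.9 TPM, and all 8 were lower in the *Cd300a-/-* library of SiglecF lo cells than in its WT counterpart. The 8 cardiomyocyte markers, led by *Mb*, summed to 54.6, 94.1, 51.9 and 26.6 TPM. In the SiglecF lo libraries *Mb* lay below *Myl2*, at 7.96 against 13.2 TPM in WT and 1.30 against 12.5 TPM in *Cd300a-/-* mice. In contrast, the 10 neutrophil markers, led by *S100a9*, summed to 28687, 33757, 156274 and 205861 TPM, and all 10 were lower in SiglecF hi neutrophils of each genotype. Among platelet markers *Gp1bb* and *Gp5* had 0 counts in every library, although *Pf4*, the most abundant of the 6, was at 867, 627, 345 and 235 TPM and the list summed to 878, 641, 353 and 244 TPM. Nearly all of this sum was thus *Pf4*. The eosinophil marker *Epx* had 0 counts in every library, and the 7 eosinophil markers summed to 117, 119, 173 and 87.9 TPM, nearly all of it from *Ear2*. Which cells gave *Pf4* and *Ear2* was not tested. The 7 lymphocyte markers, led by *Cd79b* and with *Trac* at 0 counts, summed to 9.81, 18.2, 5.97 and 8.40 TPM. In such bulk samples a change in the share of a cell type and a change of message per cell cannot be told apart, and the part of other cells in the levels of the TGF-β genes was not tested.

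The 10 genes covered a wide range of levels (plot of TPM by gene and library). *Tgfbi*, which encodes a secreted matrix protein induced by TGF-β, was the highest of the 10 in every library and ranked 184th, 171st, 130th and 107th among all genes in WT SiglecF hi, *Cd300a-/-* SiglecF hi, WT SiglecF lo and *Cd300a-/-* SiglecF lo neutrophils. *Tgfb1* and *Skil* followed, then both receptors, then *Smad3* and *Smad7*, whose intervals overlapped in every library, and *Smad2*. The ligand genes *Tgfb3* and *Tgfb2* were the lowest pair in every library, although the interval of *Tgfb3* overlapped that of *Smad2* in WT SiglecF lo neutrophils and that of *Tgfb2* in *Cd300a-/-* SiglecF lo neutrophils. The order changed at few places. *Skil* lay above *Tgfb1* in *Cd300a-/-* SiglecF hi neutrophils, and below it in both WT libraries, while their intervals overlapped in *Cd300a-/-* SiglecF lo neutrophils. *Tgfbr1* lay above *Tgfbr2* in the SiglecF hi libraries and below it in *Cd300a-/-* SiglecF lo neutrophils, while the intervals of both overlapped in WT SiglecF lo neutrophils. A mean TPM of the 4 libraries over 10, the limit used for counting genes, was passed by 7 of the 10 genes, each of which was over 10 TPM in every library. *Tgfb2* (mean 2.80 TPM), *Tgfb3* (6.53 TPM) and *Smad2* (9.72 TPM) did not pass it and are described by their values.

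**Figure D1:**
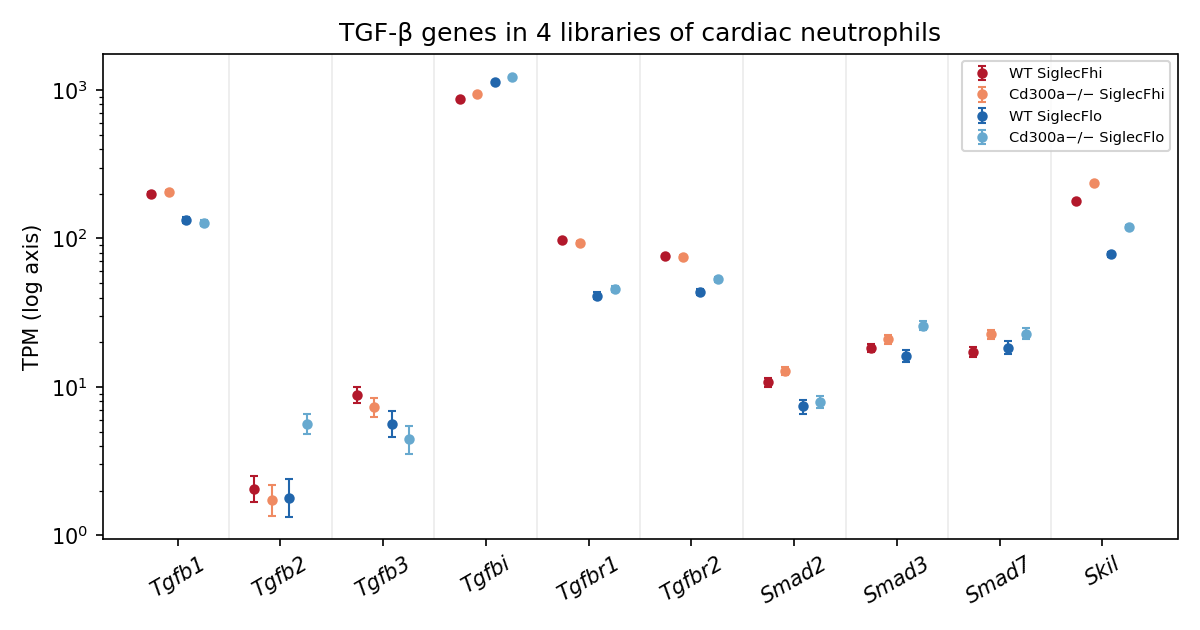
Level of each of the 10 genes in the 4 libraries, in TPM on a log axis. Points are single libraries and bars are 95% Poisson intervals of the counts, which are smaller than the point for the more abundant genes. *Tgfbi* lies between 865 and 1226 TPM, and *Tgfb2* lies at 5.60 TPM in *Cd300a-/-* SiglecF lo neutrophils against 1.74 to 2.06 TPM in the other libraries.

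*Tgfb1* was the principal ligand gene of these cells. *Tgfb1* (ENSMUSG00000002603, chromosome 7, 25386427 to 25404502, plus strand) was at 200.3 TPM (interval 194 to 206, 4270 counts) in SiglecF hi cells of WT mice, 205 TPM (199 to 212, 3916 counts) in SiglecF hi cells of *Cd300a-/-* mice, 133 TPM (126 to 139, 1657 counts) in SiglecF lo cells of WT mice and 128 TPM (122 to 134, 1759 counts) in SiglecF lo cells of *Cd300a-/-* mice. It was thus higher in both SiglecF hi libraries, with overlapping intervals between genotypes in each subset. Of the summed TPM of the 3 ligand genes, *Tgfb1* held 94.9%, 95.8%, 94.7% and 92.7% in the same order. *Tgfb3* (ENSMUSG00000021253, chromosome 12, 86103519 to 86125815, minus strand) was at 8.79 TPM (261 counts), 7.26 TPM (193 counts), 5.64 TPM (98 counts) and 4.43 TPM (85 counts). One end of *Tgfb3* overlaps *Ttll5*, which lies on the plus strand from 85871433 to 86108667 and had 154, 159, 45 and 89 counts, and without a statement on strand the reads of the shared stretch cannot be assigned with certainty.

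*Tgfb2* had a different pattern from the other ligand genes. *Tgfb2* (ENSMUSG00000039239, chromosome 1, 186354989 to 186438186, minus strand) was at 2.06 TPM (interval 1.66 to 2.52, 94 counts) in SiglecF hi cells of WT mice, 1.74 TPM (1.36 to 2.19, 71 counts) in SiglecF hi cells of *Cd300a-/-* mice, 1.80 TPM (1.32 to 2.38, 48 counts) in SiglecF lo cells of WT mice and 5.60 TPM (4.78 to 6.52, 165 counts) in SiglecF lo cells of *Cd300a-/-* mice. The *Cd300a-/-* SiglecF lo library stood above the other 3, whose intervals overlapped. The share of *Tgfb2* in the TPM of the ligand genes was 4.06% there, against 0.975%, 0.811% and 1.28% in WT SiglecF hi, *Cd300a-/-* SiglecF hi and WT SiglecF lo neutrophils. The study names *Tgfb1* as profibrotic. By quantitative PCR set against the β-actin gene, the study reports significantly more *Tgfb1* message in SiglecF hi than in SiglecF lo neutrophils of the heart. Between genotypes the study found comparable levels. That PCR is a measurement apart from the libraries used here. The 10 genes were chosen with results of these libraries known, so their directions are not independent evidence.

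*Tgfbi* (ENSMUSG00000035493, chromosome 13, 56757336 to 56787375, plus strand) was at 865 TPM (interval 854 to 876, 22792 counts) in SiglecF hi cells of WT mice, 938 TPM (926 to 950.4, 22126 counts) in SiglecF hi cells of *Cd300a-/-* mice, 1131 TPM (1114 to 1148, 17450 counts) in SiglecF lo cells of WT mice and 1226 TPM (1209 to 1242, 20862 counts) in SiglecF lo cells of *Cd300a-/-* mice. No intervals overlapped, and both SiglecF lo libraries lay above both SiglecF hi libraries. The ratio of *Tgfbi* to *Tgfb1* in TPM was 4.32 and 4.57 in the SiglecF hi libraries of WT and *Cd300a-/-* mice, against 8.52 and 9.59 in their SiglecF lo libraries.

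The receptor genes were higher in the SiglecF hi libraries, although *Tgfbr2* in *Cd300a-/-* mice was not when set against the median of all genes. *Tgfbr1* (ENSMUSG00000007613, chromosome 4, 47353222 to 47414931, plus strand), which encodes the type I receptor kinase, was at 97.2 TPM (interval 94.7 to 99.8, 5473 counts) in SiglecF hi cells of WT mice, 93.1 TPM (90.5 to 95.8, 4691 counts) in SiglecF hi cells of *Cd300a-/-* mice, 41.1 TPM (38.9 to 43.3, 1354 counts) in SiglecF lo cells of WT mice and 45.5 TPM (43.3 to 47.7, 1654 counts) in SiglecF lo cells of *Cd300a-/-* mice. *Tgfbr2* (ENSMUSG00000032440, chromosome 9, 115913361 to 116004428, minus strand), which encodes the ligand-binding type II receptor, was at 75.9 TPM (73.9 to 78.0, 5454 counts), 75.1 TPM (73.0 to 77.3, 4831 counts), 43.9 TPM (41.9 to 45.9, 1845 counts) and 53.2 TPM (51.1 to 55.3, 2468 counts) in the same order. For *Tgfbr2* the genotypes overlapped in SiglecF hi but not in SiglecF lo neutrophils. The ratio of *Tgfbr1* to *Tgfbr2* in TPM was 1.28 and 1.24 in the SiglecF hi libraries of WT and *Cd300a-/-* mice and 0.937 and 0.855 in the SiglecF lo libraries.

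Of the SMAD genes, *Smad3* was above *Smad2* in every library. *Smad2* (ENSMUSG00000024563, chromosome 18, 76374651 to 76444034, plus strand) was at 10.8 TPM (830 counts) in SiglecF hi cells of WT mice, 12.8 TPM (883 counts) in SiglecF hi cells of *Cd300a-/-* mice, 7.38 TPM (333 counts) in SiglecF lo cells of WT mice and 7.92 TPM (394 counts) in SiglecF lo cells of *Cd300a-/-* mice. *Smad3* (ENSMUSG00000032402, chromosome 9, 63554049 to 63665276, minus strand) was at 18.3 TPM (interval 17.1 to 19.6, 843 counts), 20.9 TPM (19.5 to 22.3, 861 counts), 16.2 TPM (14.7 to 17.8, 437 counts) and 25.8 TPM (24.0 to 27.7, 767 counts) in the same order. *Smad3* was thus highest in the *Cd300a-/-* SiglecF lo library, where the ratio of *Smad3* to *Smad2* in TPM was 3.26, against 1.70, 1.63 and 2.20 in WT SiglecF hi, *Cd300a-/-* SiglecF hi and WT SiglecF lo neutrophils.

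The feedback inhibitors are induced by TGF-β and limit its signal. SMAD7 blocks the type I receptor and recruits ubiquitin ligases to it, and SnoN, the product of *Skil*, represses SMAD complexes on DNA. *Skil* (ENSMUSG00000027660, chromosome 3, 31149207 to 31176726, plus strand) was at 178 TPM (interval 175 to 182, 10523 counts) in SiglecF hi cells of WT mice, 235 TPM (231 to 239, 12386 counts) in SiglecF hi cells of *Cd300a-/-* mice, 78.2 TPM (75.2 to 81.2, 2699 counts) in SiglecF lo cells of WT mice and 119 TPM (116 to 123, 4548 counts) in SiglecF lo cells of *Cd300a-/-* mice. No intervals overlapped, and *Skil* was higher in the *Cd300a-/-* library of each subset. *Smad7* (ENSMUSG00000025880, chromosome 18, 75500600 to 75529006, plus strand) was at 17.1 TPM (15.9 to 18.5, 659 counts), 22.6 TPM (21.0 to 24.2, 777 counts), 18.4 TPM (16.7 to 20.3, 414 counts) and 22.8 TPM (21.0 to 24.8, 566 counts) in the same order. Its intervals separated the genotypes in each subset, while those of the subsets overlapped in each genotype.

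The loss of *Cd300a* was compared with WT in SiglecF hi neutrophils. None of the 7 genes counted was past 0.5 on the log2 scale, against 3.31% of 6523 genes that were higher past 0.5 and 3.46% that were lower. The highest ratios were those of the feedback inhibitors, 0.39 for *Skil* (interval 0.36 to 0.43) and 0.38 for *Smad7* (0.23 to 0.52), which corresponded to 1.31-fold and 1.32-fold higher TPM in *Cd300a-/-* neutrophils. *Smad2* (0.23, interval 0.10 to 0.36), *Smad3* (0.18, interval 0.05 to 0.31) and *Tgfbi* (0.12, interval 0.09 to 0.14) had smaller ratios. *Tgfb1* (0.03, interval -0.03 to 0.10) and *Tgfbr2* (-0.01, interval -0.07 to 0.04) had intervals that held 0, and *Tgfbr1* was at -0.06 (-0.12 to -0.01). The low ligand genes *Tgfb2* (-0.16, interval -0.46 to 0.14) and *Tgfb3* (-0.24, interval -0.49 to -0.00143) were at lower values in *Cd300a-/-* neutrophils. The counting interval excluded 0 for 5 of the 7 genes and for 62.0% of all genes counted, so such an interval does not set these genes apart. The median of the 7 genes was 0.12 and that of all genes 0.04, and on centring on the latter *Tgfb1* changed its sign, at -0.00325. Markers differed between these libraries too. Neutrophil markers were higher in the *Cd300a-/-* library for 8 of 10 genes, led by *Ly6g* (1.82), *Retnlg* (1.20) and *Mmp8* (1.10), as were 7 of 8 endothelial markers (sum 125 against 97.4 TPM) and 7 of 8 cardiomyocyte markers (94.1 against 54.6 TPM, with *Mb* at 1.20). In turn 10 of 12 macrophage and monocyte markers (6923 against 7756 TPM) and 7 of 9 fibroblast markers (1519 against 2131 TPM) were lower. *Pf4* of the platelet list was also lower (-0.47). The part of all such cells in the ratios of the TGF-β genes was not tested.

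In SiglecF lo neutrophils, *Smad3* and *Skil* were higher in the *Cd300a-/-* library past 0.5. These were 2 of the 7 genes counted, against 16.4% of all genes that were higher past 0.5, and 0 of the 7 were lower, against 19.9%. *Smad3* was 1.59-fold higher (log2 ratio 0.64, interval 0.48 to 0.80) and *Skil* 1.53-fold higher (0.60, interval 0.54 to 0.67). *Smad7* (0.30, interval 0.12 to 0.47), *Tgfbr2* (0.27, interval 0.19 to 0.36), *Tgfbr1* (0.14, interval 0.04 to 0.25) and *Tgfbi* (0.12, interval 0.09 to 0.14) were higher by less, and *Tgfb1* was at -0.06 (-0.15 to 0.04). Of the genes under the limit, *Tgfb2* was 3.12-fold higher (log2 ratio 1.24, interval 0.90 to 1.56), whereas *Tgfb3* (-0.29, interval -0.65 to 0.07) and *Smad2* (0.09, interval -0.10 to 0.28) had intervals that held 0. The counting interval excluded 0 for 6 of the 7 genes and for 75.5% of all genes. The median of the 7 genes was 0.27 and that of all genes -0.02.

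The WT and *Cd300a-/-* SiglecF lo libraries also differed in the markers of neutrophils and of other cells. Neutrophil markers were higher in the *Cd300a-/-* library for 10 of 10 genes, with a median log2 ratio of 0.51, and the 8 endothelial markers summed to 65.9 TPM against 172 TPM in WT. All 8 cardiomyocyte markers were lower, with a sum of 26.6 against 51.9 TPM. The eosinophil list, nearly all of it *Ear2* (-0.98), summed to 87.9 against 173 TPM. The macrophage and monocyte markers summed to 3512 against 3809 TPM, but *Fcgr1* (-1.22), *Cx3cr1* (-0.75) and *Ms4a7* (-0.69) were lower and *Mrc1* (0.66) was higher past 0.5. The fibroblast markers summed to 996 against 984 TPM, with *Fbln1* at -0.74, *Postn* at 0.81 and *Tcf21*, which was under the limit, at 1.19. *Pf4* of the platelet list was at -0.55. The part of these differences in the ratios of *Smad3*, *Skil* and *Tgfb2* was not tested.

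**Figure D2:**
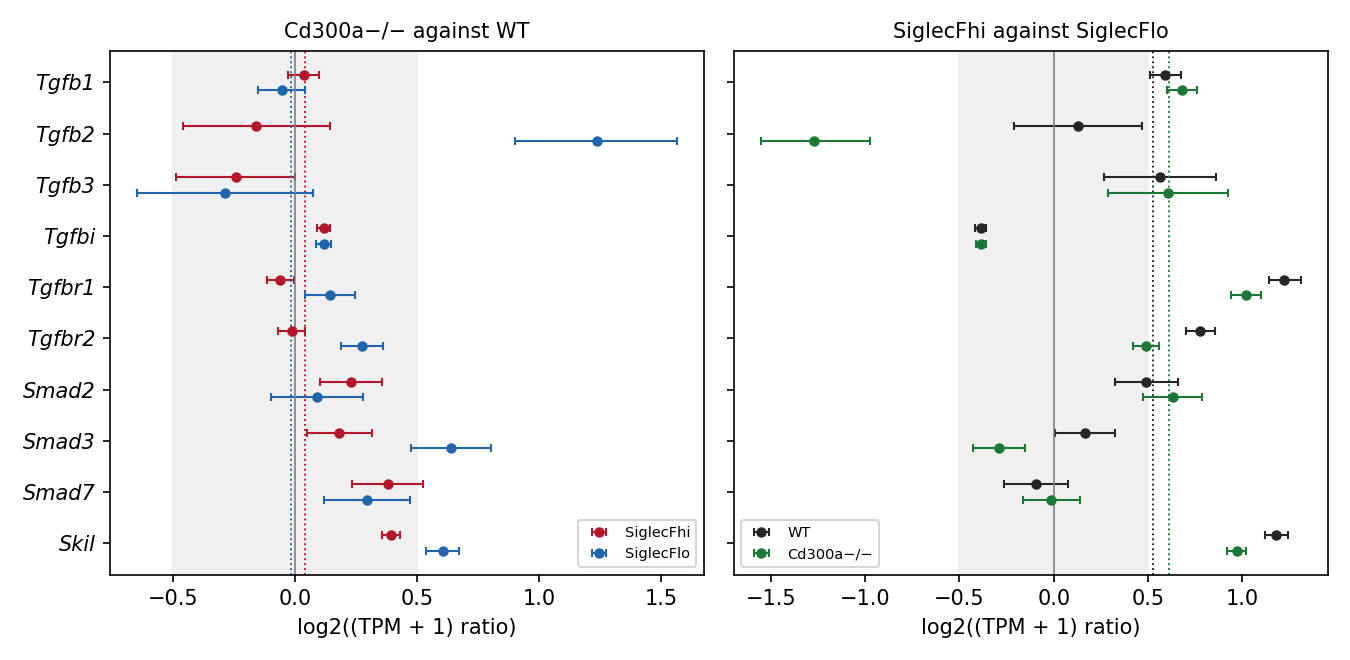
Log2((TPM + 1) ratio) of each gene, *Cd300a-/-* against WT in the left panel and SiglecF hi against SiglecF lo neutrophils in the right panel. Points are the ratio of 2 libraries, bars are 95% counting intervals, the grey band spans 0.5 on either side of 0, and dotted lines are the medians of 6523 genes in the comparison of the same color. In the right panel *Tgfbr1* and *Skil* lie beyond the median of all genes in each genotype, by more than 0.5 in WT alone. *Tgfb1* lies near the median in each.

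Both subsets were next set against each other within each genotype. In these comparisons TPM of most genes was higher in SiglecF hi neutrophils, with a median log2 ratio over all genes counted of 0.53 in WT and 0.61 in *Cd300a-/-* mice. A few neutrophil genes such as *S100a8* and *S100a9* took a larger part of the total in SiglecF lo neutrophils. Their part in the shift of the other genes was not tested. In WT neutrophils 51.9% of all genes were higher past 0.5 and 7.47% lower, and in *Cd300a-/-* neutrophils 56.6% and 7.97%. After subtraction of the median from every ratio, 19.3% were higher and 20.9% lower in WT, and 21.2% and 23.6% in *Cd300a-/-* neutrophils. A ratio between 0 and the median changes its direction on this scale, so ratios of the 10 genes between subsets are given as deposited and then relative to the median, and those of other named genes as deposited, with the other value where the direction turns.

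In WT mice, 4 of the 7 genes counted, *Tgfb1*, *Tgfbr1*, *Tgfbr2* and *Skil*, were higher in SiglecF hi neutrophils past 0.5, and 0 were lower. Relative to the median of all genes 2 were higher past 0.5, *Tgfbr1* and *Skil*, and 2 were lower, *Tgfbi* and *Smad7*. *Tgfbr1* was 2.37-fold higher in TPM, with a log2 ratio of 1.22 (interval 1.14 to 1.31), or 0.70 relative to the median. *Skil* was 2.28-fold higher (1.18, interval 1.12 to 1.24, or 0.65 relative to the median). *Tgfbr2* was 1.73-fold higher (0.78, interval 0.70 to 0.85, or 0.25 relative to the median). *Tgfb1* was 1.51-fold higher (0.59, interval 0.51 to 0.67), which was 0.06 relative to the median. In these libraries its TPM thus moved about as much as that of the median gene. Whether the shift of all genes accounts for the *Tgfb1* difference was not tested. *Tgfbi* was lower in SiglecF hi neutrophils on each scale, at -0.39 (-0.42 to -0.36) and at -0.91 relative to the median. *Smad7* was at -0.10 (-0.27 to 0.07), or -0.62 relative to the median. *Smad3* was at 0.17 (0.01 to 0.33) and turned to -0.36 relative to the median and with TMM-scaled counts. The genes under the limit were *Tgfb3* (0.56, interval 0.26 to 0.86, or 0.03 relative to the median), *Smad2* (0.49, interval 0.32 to 0.66, or -0.04 relative to the median) and *Tgfb2* (0.13, interval -0.21 to 0.47, or -0.40 relative to the median and -0.28 with TMM-scaled counts).

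In *Cd300a-/-* mice, 3 of the 7 genes, *Tgfb1*, *Tgfbr1* and *Skil*, were higher in SiglecF hi neutrophils past 0.5, and 0 were lower. Relative to the median of all genes 0 were higher past 0.5, and 3 were lower, *Tgfbi*, *Smad3* and *Smad7*. *Tgfbr1* was 2.05-fold higher (log2 ratio 1.02, interval 0.94 to 1.10, or 0.40 relative to the median), *Skil* 1.97-fold higher (0.97, interval 0.92 to 1.02, or 0.36 relative to the median) and *Tgfb1* 1.61-fold higher (0.68, interval 0.60 to 0.76, or 0.07 relative to the median). *Tgfbr2* was at 0.49 (0.42 to 0.56), and its direction turned relative to the median, at -0.12, and with TMM-scaled counts, at -0.08. *Tgfbi* was at -0.39 (-0.41 to -0.36), or -1.00 relative to the median, close to its values in WT mice. *Smad3* was at -0.29 (-0.43 to -0.15), or -0.90 relative to the median, and *Smad7* at -0.01 (-0.16 to 0.14), or -0.63. Under the limit were *Tgfb2* (-1.27, interval -1.55 to -0.97, or -1.88 relative to the median), *Tgfb3* (0.61, interval 0.29 to 0.92, or -0.00834 relative to the median) and *Smad2* (0.63, interval 0.47 to 0.79, or 0.02 relative to the median). The counting interval excluded 0 for 6 of the 7 genes in each genotype, against 89.3% of all genes in WT and 90.5% in *Cd300a-/-* mice. The medians of the 7 genes were 0.59 in WT and 0.49 in *Cd300a-/-* mice. These comparisons share libraries with those between genotypes and are not independent of them.

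Of the 12 macrophage and monocyte markers 10 in WT and 11 in *Cd300a-/-* mice were higher in SiglecF hi neutrophils, or 7 and 10 relative to the median. The monocyte genes *Ly6c2* (-1.48 in WT and -1.64 in *Cd300a-/-* mice) and *Ccr2* were not among those higher relative to the median, with *Ccr2* at -0.53 and -0.54 on that scale. All 9 fibroblast markers were higher, or 9 in WT and 4 in *Cd300a-/-* mice relative to the median. The median log2 ratio of the 12 macrophage and monocyte markers was 1.27 in WT and 1.00 in *Cd300a-/-* mice, and that of the 7 fibroblast markers above the limit was 1.11 and 0.76. That of the 10 neutrophil markers was -1.85 and -1.95. Of the 8 endothelial markers 7 were lower in WT and 8 higher in *Cd300a-/-* mice, or 0 and 7 higher relative to the median. The median log2 ratio of the 6 endothelial markers above the limit was -0.77 in WT and 0.71 in *Cd300a-/-* mice. Of the 8 cardiomyocyte markers 3 were higher and 5 lower in WT, and 6 were higher and 1 lower in *Cd300a-/-* mice, with 3 and 5 higher relative to the median. *Pf4* of the platelet list was higher in SiglecF hi neutrophils, at 1.33 in WT and 1.41 in *Cd300a-/-* mice, or 0.80 relative to the median in each. *Ear2* of the eosinophil list was at -0.63 in WT and at 0.39 in *Cd300a-/-* mice, where it turned to -0.22 relative to the median. The part of these markers' cells in the ratios of the TGF-β genes was not tested.

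The patterns of *Tgfb1* and *Tgfbi* over the 4 libraries were shared by other genes. By the root mean square difference of log2(TPM + 1), centred on its mean, the genes nearest to *Tgfb1* were *Cyrib* (0.013), *Sf3b2* (0.0132) and *Ppp2r3c* (0.0189), and 385 of 6522 genes lay within 0.1. The genes nearest to *Tgfbi* were *Vrk1* (0.0154), *Rnf149* (0.017) and *Rac2* (0.0295), and 103 genes lay within 0.1. With 4 libraries such closeness describes the libraries alone.

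Upstream sequences were examined because *Tgfb1*, *Tgfbr1* and *Tgfbr2* were higher as deposited in the SiglecF hi libraries of each genotype, with *Tgfbr2* turning relative to the median in *Cd300a-/-* mice, and *Tgfbi* was lower. RefSeq windows of the 250 bases before the gene start (GRCm38.p6) matched 6 of the 10 genes, *Tgfb1*, *Tgfb2*, *Tgfbr1*, *Tgfbr2*, *Smad3* and *Tgfbi*, with 2 windows for *Tgfbr1*, of which the one with the lower coordinate is printed. The letters CAGAC, the core of SMAD-binding elements, GGGCGG, the GC box bound by SP1, and TGANTCA, the AP-1 site, were searched on both strands. Of 32851 windows of the same length, 42.2% held CAGAC, 32.7% GGGCGG and 6.75% TGANTCA. The sequences below run 5′ to 3′ on the strand of the gene, and capitals mark CAGAC and GGGCGG or their reverse complements.
*Tgfb1*, chr7:25686752-25687001, plus strand: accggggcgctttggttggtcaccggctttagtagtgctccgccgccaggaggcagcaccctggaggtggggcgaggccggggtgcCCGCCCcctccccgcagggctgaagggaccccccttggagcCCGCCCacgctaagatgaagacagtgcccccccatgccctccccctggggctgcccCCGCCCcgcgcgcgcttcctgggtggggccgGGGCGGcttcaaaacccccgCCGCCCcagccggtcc
*Tgfbr1*, chr4:47352972-47353221, plus strand: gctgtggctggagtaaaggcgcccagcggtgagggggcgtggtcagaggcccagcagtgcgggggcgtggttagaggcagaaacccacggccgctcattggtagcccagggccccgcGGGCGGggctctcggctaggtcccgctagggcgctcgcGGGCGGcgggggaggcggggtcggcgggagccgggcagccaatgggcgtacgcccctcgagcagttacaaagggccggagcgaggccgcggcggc
*Tgfbr2*, chr9:116175364-116175613, minus strand: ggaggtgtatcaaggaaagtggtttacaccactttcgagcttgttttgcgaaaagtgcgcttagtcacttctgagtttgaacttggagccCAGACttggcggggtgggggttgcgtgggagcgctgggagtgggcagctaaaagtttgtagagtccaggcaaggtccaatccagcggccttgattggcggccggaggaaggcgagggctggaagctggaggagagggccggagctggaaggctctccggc
*Tgfbi*, chr13:56609336-56609585, plus strand: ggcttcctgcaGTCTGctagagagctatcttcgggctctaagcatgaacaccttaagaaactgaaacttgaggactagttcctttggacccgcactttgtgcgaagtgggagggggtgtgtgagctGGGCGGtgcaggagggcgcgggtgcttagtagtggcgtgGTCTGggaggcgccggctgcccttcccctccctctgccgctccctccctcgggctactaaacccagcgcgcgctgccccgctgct
GGGCGG was found at 5 places in the *Tgfb1* window and at 2 in the printed window of *Tgfbr1*, neither of which held CAGAC, and their GC content was 75.2% and 74.8%, against a median of 52.4% over all windows. CAGAC was found at 1 place in the *Tgfbr2* window, which held no GGGCGG, and at 2 places in the *Tgfbi* window, which held GGGCGG at 1 place. Of the windows not printed, the other one of *Tgfbr1* held CAGAC at 1 place and no GGGCGG, with a GC content of 52.8%, that of *Tgfb2* held CAGAC at 2 places and that of *Smad3* held GGGCGG at 2. TGANTCA was in none of the 7 windows. A match of so few letters describes the sequence and does not show binding.

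The pathway around the 10 genes was followed through 75 further genes in 6 lists, of which 36 had a mean TPM over 10. *Cd300a-/-* against WT, 0 of the 36 were higher and 5 lower past 0.5 in SiglecF hi neutrophils, against 3.31% and 3.46% of all genes, with a median of -0.02. In SiglecF lo neutrophils 10 were higher and 8 lower past 0.5, against 16.4% and 19.9% of all genes, with a median of -0.11. SiglecF hi against SiglecF lo, 21 were higher and 4 lower past 0.5 in WT mice, against 51.9% and 7.47% of all genes, and 15 were higher and 4 lower in *Cd300a-/-* mice, against 56.6% and 7.97%. Relative to the median of all genes, these became 5 higher and 8 lower in WT, against 19.3% and 20.9%, and 5 higher and 12 lower in *Cd300a-/-* mice, against 21.2% and 23.6%.

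Of the 5 other SMAD genes *Smad4*, the common partner of SMAD2 and SMAD3, alone passed the limit. *Smad4* was at 42.5 TPM in SiglecF hi cells of WT mice, 43.0 TPM in SiglecF hi cells of *Cd300a-/-* mice, 26.2 TPM in SiglecF lo cells of WT mice and 47.7 TPM in SiglecF lo cells of *Cd300a-/-* mice, so that WT SiglecF lo was the low library. Its log2 ratio of *Cd300a-/-* to WT was 0.84 (interval 0.69 to 1.00) in SiglecF lo and 0.01 (-0.10 to 0.12) in SiglecF hi neutrophils. SiglecF hi against SiglecF lo it was 0.68 in WT, or 0.15 relative to the median, and -0.15 in *Cd300a-/-* mice, or -0.76.

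Of the 11 other receptors of the superfamily 3 passed the limit, and in SiglecF lo neutrophils 2 were higher and 1 lower past 0.5 in *Cd300a-/-* mice, against 16.4% and 19.9% of all genes. *Acvrl1*, which encodes the type I receptor ALK1, was at 26.7, 25.9, 32.0 and 89.0 TPM in WT SiglecF hi, *Cd300a-/-* SiglecF hi, WT SiglecF lo and *Cd300a-/-* SiglecF lo neutrophils, with a log2 ratio of 1.45 (interval 1.32 to 1.57) between genotypes in SiglecF lo neutrophils and 2020 counts in the highest library. *Acvr1b*, the gene of an activin receptor, had a ratio of 0.51 (0.34 to 0.67) there. *Eng*, which encodes the coreceptor endoglin, went the other way, at 42.3, 45.8, 48.9 and 24.4 TPM, with a ratio of -0.97 (-1.13 to -0.82) in SiglecF lo neutrophils. *Acvrl1* and *Eng* are both known from endothelial cells, whose 6 markers above the limit had a median log2 ratio of -1.27 in that comparison. Between subsets in *Cd300a-/-* mice, *Acvrl1* (-1.74, or -2.35 relative to the median) and *Acvr1b* (-0.67, or -1.28) were lower and *Eng* (0.88, or 0.27 relative to the median) was higher in SiglecF hi neutrophils. All 8 endothelial markers were also higher in this comparison, with a median of 0.71 over the 6 above the limit. In WT mice 0 of the 3 were past 0.5 as deposited, against 51.9% of all genes higher and 7.47% lower, and all 3 were lower past 0.5 relative to the median, against 20.9%. *Bmpr1b* had 0 counts in every library.

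Of the 13 genes that store or activate latent TGF-β, 7 passed the limit. Of these, 4 were higher past 0.5 in the *Cd300a-/-* SiglecF lo library than in that of WT mice, against 16.4% of all genes, and 0 were lower, against 19.9%, while in SiglecF hi neutrophils 0 were past 0.5 in either direction, against 3.31% of all genes higher and 3.46% lower. *Thbs1*, the most abundant, which encodes thrombospondin 1, was at 885, 994, 785 and 1183 TPM in WT SiglecF hi, *Cd300a-/-* SiglecF hi, WT SiglecF lo and *Cd300a-/-* SiglecF lo neutrophils. *Furin*, the gene of the convertase that cleaves the TGF-β precursor, was at 101, 117, 62.0 and 118 TPM. WT SiglecF lo was the low library for both. The log2 ratios between genotypes in SiglecF lo neutrophils were 0.92 (interval 0.83 to 1.00) for *Furin*, 0.75 (0.51 to 0.98) for *Ltbp3*, 0.59 (0.57 to 0.61) for *Thbs1* and 0.54 (0.37 to 0.71) for the integrin gene *Itgav*. Between subsets in WT mice 5 of the 7 were higher past 0.5 in SiglecF hi neutrophils, against 51.9% of all genes, *Itgb5* at 1.11, *Ltbp3* at 0.96, *Itgav* at 0.87, *Furin* at 0.70 and *Nrros* at 0.61, of which *Itgb5* alone stayed past 0.5 relative to the median, at 0.58, against 19.3% of all genes. In *Cd300a-/-* mice *Itgb5* (0.99) alone was higher past 0.5, against 56.6%, and it was at 0.38 relative to the median. Lower past 0.5 relative to the median were 1 of the 7 in WT and 4 in *Cd300a-/-* mice, against 20.9% and 23.6% of all genes.

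Of the 10 other inhibitors 7 passed the limit, and the most abundant was *Tgif1*, the gene of a SMAD corepressor, at 179, 217, 103 and 85.3 TPM in WT SiglecF hi, *Cd300a-/-* SiglecF hi, WT SiglecF lo and *Cd300a-/-* SiglecF lo neutrophils. In SiglecF lo neutrophils the ubiquitin ligase gene *Smurf2* was higher in *Cd300a-/-* mice (log2 ratio 0.54, interval 0.36 to 0.73), and *Fkbp1a* (-0.99, interval -1.16 to -0.81), whose product FKBP12 holds the type I receptor inactive, and *Pmepa1* (-0.96, interval -1.23 to -0.70) were lower. *Pmepa1* is induced by TGF-β and encodes an inhibitor of SMAD activation, as *Skil* and *Smad7* do for other steps, but its direction between genotypes in SiglecF lo neutrophils was opposite to theirs. In SiglecF hi neutrophils 0 of the 7 were past 0.5 between genotypes, near the 3.31% of all genes higher and 3.46% lower. In SiglecF lo neutrophils 1 was higher and 2 lower, against 16.4% and 19.9%. Between subsets, higher past 0.5 in SiglecF hi neutrophils of WT mice were *Ski* (0.93), *Smurf2* (0.91) and *Tgif1* (0.79), or 3 of 7 against 51.9% of all genes. In *Cd300a-/-* mice these were *Pmepa1* (1.60), *Tgif1* (1.34), *Ski* (0.95) and *Fkbp1a* (0.86), or 4 of 7 against 56.6%. Relative to the median, 0 of the 7 were higher and 0 lower past 0.5 in WT, against 19.3% and 20.9% of all genes. In *Cd300a-/-* mice 2 were higher on that scale, *Pmepa1* (0.99) and *Tgif1* (0.73), and 1 was lower, against 21.2% and 23.6%. *Ski*, the relative of *Skil*, was at 97.0, 106, 50.5 and 54.2 TPM and thus below *Skil* in every library, at 0.544, 0.452, 0.646 and 0.454 of its TPM.

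Of the 18 activin, BMP and GDF ligands and binders 2 passed the limit. *Gdf15*, a stress-induced ligand of the superfamily, was at 63.1, 53.8, 10.9 and 19.3 TPM in WT SiglecF hi, *Cd300a-/-* SiglecF hi, WT SiglecF lo and *Cd300a-/-* SiglecF lo neutrophils, and the subsets differed by 2.43 (interval 2.16 to 2.71) in WT and 1.43 (1.22 to 1.65) in *Cd300a-/-* mice, or 1.90 and 0.82 relative to the median. Between genotypes its ratio was 0.77 (0.45 to 1.10) in SiglecF lo neutrophils. *Gdf3* was lower in the *Cd300a-/-* library of each subset, at -0.87 (-1.13 to -0.62) for SiglecF hi cells, and for SiglecF lo cells at -1.34 (-1.76 to -0.90), from 331, 154, 115 and 43 counts, and it was higher in SiglecF hi neutrophils by 0.70 in WT and 1.16 in *Cd300a-/-* mice, or 0.17 and 0.55 relative to the median. *Nodal* and *Grem1* had 0 counts in every library.

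Genes known to be induced by TGF-β did not move as one. Of the 18, 16 passed the limit, and 4 of these, *Acta2*, *Col1a1*, *Col1a2* and *Col3a1*, were lower past 0.5 in the *Cd300a-/-* SiglecF hi library than in that of WT mice, against 3.46% of all genes, and 0 were higher, against 3.31%. In the same comparison 7 of the 9 fibroblast markers, which include these 3 collagen genes, were lower, with a median of -0.42 over the 7 above the limit and a sum of 1519 against 2131 TPM, and their part was not tested. In SiglecF lo neutrophils *Acta2*, *Tagln*, *Id1* and *Id3* were lower past 0.5, against 19.9% of all genes, and *Postn* was higher, against 16.4%. For the 16 the median was -0.39 among SiglecF hi cells, against -0.18 among SiglecF lo cells. *Junb*, the most abundant, was at 2757, 3038, 2259 and 1973 TPM in WT SiglecF hi, *Cd300a-/-* SiglecF hi, WT SiglecF lo and *Cd300a-/-* SiglecF lo neutrophils.

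*Acta2* and *Tagln* were highest in the WT SiglecF lo library. *Acta2*, the gene of smooth muscle actin, was at 55.2, 31.5, 365 and 123 TPM in WT SiglecF hi, *Cd300a-/-* SiglecF hi, WT SiglecF lo and *Cd300a-/-* SiglecF lo neutrophils, and *Tagln* was at 39.1, 29.6, 307 and 108 TPM. The log2 ratio of *Cd300a-/-* to WT in SiglecF lo neutrophils was -1.56 (interval -1.65 to -1.48) for *Acta2* and -1.50 (-1.60 to -1.39) for *Tagln*. *Id1* and *Id3*, which respond to BMP as well as to TGF-β, were also lower there, at -1.07 (-1.23 to -0.91) and -1.62 (-1.79 to -1.46). All 8 endothelial markers and all 8 cardiomyocyte markers had lower TPM in the same comparison. The fibroblast markers summed to 996 TPM in *Cd300a-/-* against 984 TPM in WT mice. No list of smooth muscle cell markers was made, and the part of any other cells in these ratios was not tested.

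*Col1a1*, *Col1a2*, *Col3a1* and *Postn* are also among the 9 fibroblast markers. *Col3a1* was at 572, 364, 240.1 and 215 TPM in WT SiglecF hi, *Cd300a-/-* SiglecF hi, WT SiglecF lo and *Cd300a-/-* SiglecF lo neutrophils. Its log2 ratio of *Cd300a-/-* to WT in SiglecF hi neutrophils was -0.65 (interval -0.68 to -0.62), with *Col1a2* at -0.69, *Col1a1* at -0.64 and *Acta2* at -0.79. *Postn*, the gene of periostin, was at 234, 175, 95.2 and 168 TPM, with a ratio of 0.81 (0.72 to 0.90) in SiglecF lo neutrophils. Between subsets 10 of the 16 were higher and 4 lower past 0.5 in SiglecF hi neutrophils of WT mice, against 51.9% and 7.47% of all genes, or 3 and 4 relative to the median, against 19.3% and 20.9%. In *Cd300a-/-* mice 7 were higher and 2 lower past 0.5, against 56.6% and 7.97%, or 1 and 4 relative to the median, against 21.2% and 23.6%. The widest of these ratios were those of *Tagln* (-2.94 in WT and -1.83 in *Cd300a-/-* mice) and *Acta2* (-2.71 and -1.93) on the lower side and *Postn* in WT (1.29) and *Cdkn1a* in *Cd300a-/-* mice (1.68) on the higher side. Among the others past 0.5 in WT mice were *Col3a1* (1.25), *Col1a1* (1.12), *Col1a2* (1.02), *Cdkn1a* (0.97), *Ccn2* (0.89), *Ccn1* (0.67), *Id2* (0.52, or -0.00961 relative to the median) and *Fn1* (0.51, or -0.0168 relative to the median), with *Id1* (-1.05) and *Id3* (-0.88) on the lower side, and in *Cd300a-/-* mice *Col3a1* (0.76), *Junb* (0.62), *Ccn2* (0.60), *Id2* (0.58) and *Id3* (0.58). In *Cd300a-/-* mice these last 3 turned relative to the median, at -0.0116, -0.0285 and -0.0354, but not with TMM-scaled counts, at 0.04, 0.0062 and 0.00498.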

How the data were processed

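Per the methods of the study, poly(A) RNA was sequenced in paired ends and CLC Genomics Workbench was used to calculate TPM; the submitters' processing notes name GRCm39, and gene positions are those of the files. Per gene, the authors deposited a count (a whole number without normalization), RPKM, TPM (which sums to 1000000 in each library) and a signal named CPM whose total differs between libraries. The deposited RPKM and the deposited CPM signal were not used here. Whether strand was used in counting, and whether a count is a read or a read pair, is not given in the sources used here.

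The deposited TPM values were compared as log2((TPM + 1) ratio), between genotypes in each subset (*Cd300a-/-* to WT) and between subsets in each genotype (SiglecF hi to SiglecF lo), and genes past 0.5 were counted among 6523 genes with a mean TPM over 10. The deposited counts gave Poisson intervals of levels and Clopper-Pearson intervals of ratios (95%), with the TPM of 1 count held fixed. No test compared conditions. Alternatives were a pseudocount of 0.1, no limit on TPM, a TPM over 10 in both libraries compared, a threshold of 1, TMM-scaled CPM (edgeR 4.0.16, R 4.3.3) and centring on the median of all genes counted. The 10 genes and all lists were chosen with earlier results of these data known. Every gene of the pathway lists was counted, and those past 0.5 with a mean TPM over 10, or the most abundant of a list, were named, except for a gene that is counted in its list but not reported here, together with the sorting markers and the 3 genes nearest to *Tgfb1* and *Tgfbi*; *S100a8* and the markers *Retnlg*, *Mmp8*, *Ly6c2*, *Ccr2*, *Fcgr1*, *Cx3cr1*, *Ms4a7*, *Mrc1*, *Fbln1* and *Tcf21* were named after their values were seen. Calculations were tested on simulated counts. Python 3.11.15, numpy 2.4.6, pandas 2.3.3, scipy 1.17.1 and matplotlib 3.10.9 were used.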

Additional observations from a re-analysis of the deposited data

Results flagged for a closer look

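Some log2 ratios had opposite signs in the groups compared. With 1 library per group the difference between the ratios was not tested, and counting error is the only error that could be given. For *Cd300a-/-* against WT, the value in SiglecF lo minus that in SiglecF hi neutrophils was 1.40 for *Tgfb2* (counting interval 0.97 to 1.83), 0.29 for *Tgfbr2* (0.19 to 0.39), 0.21 for *Tgfbr1* (0.09 to 0.32) and -0.0899 for *Tgfb1* (-0.20 to 0.02), so that counting error alone covered the difference for *Tgfb1*, whose ratios were both below 0 relative to the median. Among the pathway genes past 0.5 in one of the subsets it was 1.49 for *Acvrl1*, 1.23 for *Postn*, 1.14 for *Ltbp3*, 1.00 for *Gdf15*, 0.86 for *Col1a1*, -1.09 for *Eng*, -1.15 for *Pmepa1* and -1.20 for *Id1*.

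The same 4 values of a gene can also be read as SiglecF hi against SiglecF lo, where the ratio in *Cd300a-/-* minus that in WT mice was -1.40 for *Tgfb2*, -0.46 for *Smad3*, -0.83 for *Smad4*, 1.09 for *Eng*, -1.14 for *Ltbp3*, -0.71 for *Furin*, 1.20 for *Id1* and 1.45 for *Id3*. Relative to the median of all genes *Tgfb2*, *Smad3*, *Id1* and *Id3* were lower in SiglecF hi neutrophils of both genotypes, although *Id3* in *Cd300a-/-* mice was at -0.0354 there and at 0.00498 with TMM-scaled counts.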

How the results depend on the processing

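In SiglecF hi neutrophils 0 genes were past 0.5 between genotypes under each of the 6 alternatives. With a threshold of 1 the count between genotypes in SiglecF lo neutrophils became 0 in place of 2, and between subsets 2 in place of 4 in WT and 1 in place of 3 in *Cd300a-/-* mice, since fewer genes reach a larger size. Without a limit on TPM the count between subsets in *Cd300a-/-* mice became 6, because *Tgfb2*, *Tgfb3* and *Smad2* then entered. Between subsets, TMM-scaled counts and centring left 4 genes in WT and 3 in *Cd300a-/-* mice, but not the same ones: *Tgfbr1* and *Skil* higher and *Tgfbi* and *Smad7* lower in WT, and *Tgfbi*, *Smad3* and *Smad7* lower in *Cd300a-/-* mice. With TMM-scaled counts 20.1% of all genes were higher and 21.0% lower past 0.5 in WT, and 24.2% and 21.9% in *Cd300a-/-* mice. Of the 40 ratios of the 10 genes, 2 moved beyond their counting interval with a pseudocount of 0.1, 20 with TMM-scaled counts and 22 with centring, and their signs changed in 0, 3 and 6. None of the sign changes was of a gene past 0.5 that was counted. *Tgfb2* and *Tgfb3* had between 48 and 165 counts each in the SiglecF lo libraries. In the SiglecF hi libraries *Tgfb2* had 94 counts in WT and 71 in *Cd300a-/-* mice, so its ratios rest on few counts in both subsets.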
